A study of Homo sapiens with 6 samples.

Results

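The HOX genes are 39 human genes in 4 clusters, HOXA to HOXD, each encoding a homeodomain transcription factor. All 39 gene symbols made of HOX, a cluster letter and a number were found among the 56832 rows of the count table. The rule uses the symbols alone, though the HOX genes were chosen with earlier results of these data known. They were compared between 3 untreated libraries and 3 libraries from cells given 0.2 mM methylglyoxal (MGO) overnight. All 6 libraries were polyA-selected RNA from HEK293T GLO1KO, an embryonic kidney epithelial cell line in which GLO1, the glyoxalase that begins the removal of MGO, is knocked out. Every group therefore carries the knockout, and the labels do not say whether the line is 1 clone. MGO is a reactive by-product of sugar breakdown that glycates proteins, and the title of the study names 2 histone H3 changes that oppose each other, glycation and H3K4me3, the latter a mark of active promoters.

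In a HOX cluster the genes lie in 1 row and are numbered by relatedness, so that genes with the same number in different clusters (paralogs) are more alike than neighbours are. Low-numbered genes sit at the 3′ end of the cluster and are used early and toward the head of the embryo, and high-numbered genes sit at the 5′ end and are used late and toward the tail and the ends of the limbs. HOX clusters are a standard case of genes held off by Polycomb proteins and kept on by Trithorax (MLL) complexes, which methylate H3K4, and HOX proteins bind DNA together with cofactors of the PBX, MEIS and PKNOX families.

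The members differed in the sequence just before their start sites. RefSeq windows on GRCh38.p14, which run from 250 bases before a start to 50 after it, were found for 20 of the 39 members (27 windows, since HOXA3 and HOXA10 have several). The 4 stretches of 100 bases shown here end 1 base before the start, are written 5′ to 3′ on the gene's strand, and carry CG dinucleotides (CpG) in capitals. They were chosen after the values were seen, as the member with the largest fall that has a window (HOXA13), its paralog in cluster D (HOXD13), and the 2 members with a window that did not pass the test (HOXA9 and HOXD4).
HOXA13, chr7:27200092-27200191, minus strand: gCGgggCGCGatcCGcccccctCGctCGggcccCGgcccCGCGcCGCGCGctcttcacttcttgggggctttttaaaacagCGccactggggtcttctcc
HOXD13, chr2:176092621-176092720, plus strand: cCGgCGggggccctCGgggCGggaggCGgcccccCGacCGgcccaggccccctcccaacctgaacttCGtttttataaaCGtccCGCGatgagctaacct
HOXA9, chr7:27165538-27165637, minus strand: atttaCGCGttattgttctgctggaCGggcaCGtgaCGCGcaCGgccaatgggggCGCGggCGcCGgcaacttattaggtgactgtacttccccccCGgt
HOXD4, chr2:176151450-176151549, plus strand: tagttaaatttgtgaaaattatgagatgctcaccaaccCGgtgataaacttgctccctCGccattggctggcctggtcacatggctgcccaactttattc

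HOXA13 has 13 CpG in the printed stretch and 44 in its whole window of 300 bases, the most of any HOX window. HOXD13 has 11 and 24, HOXA9 has 12 and 22, and HOXD4 has 2 and 4. The median was 22 CpG over the 27 HOX windows and 14 over all 35116 RefSeq windows. The letters TATAAA, searched on both strands, were in 18.5% of HOX windows and 11.5% of all windows, and CCAAT, searched likewise, in 66.7% (18 windows) and 34.6%. HOXC4 and HOXC5 have the same window, which holds CCAAT and is counted for each, and HOXA3 has 7 windows. The HOX shares are therefore not 1 value per member. They stand mainly for HOXA and HOXD, as HOXB has a window for HOXB1 alone and HOXC for HOXC4 and HOXC5 alone. HOXA9 holds both motifs in its window, and so does HOXD13. These are counts of letters and not of bound sites.

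Library totals were 41002134 to 45910040 counts in the untreated group and 19195920 to 21544749 in the MGO group, and mitochondrial genes took 4.20 to 5.42% and 5.34 to 8.17% of them. Depth and treatment are confounded, and thinning the untreated libraries to the MGO depth left the direction and the call as they were in every called HOX gene that could then still be tested. GLO1 transcript was counted at 46.2 to 51.0 counts per 1000000 counts (CPM) in untreated and 134.5 to 144.8 CPM in MGO libraries, and with no GLO1-positive library a knockout cannot be checked from its transcript level. Of 12 kidney and epithelial markers 10 could be tested, with a summed level of 1000 to 1035 CPM in untreated and 1388 to 1416 CPM in MGO libraries. Keratins carried that sum, with KRT8 at 525 and then 824 CPM, whereas 5 of the 10 fell by at least 2-fold, among them the kidney progenitor genes PAX2 (-2.24 on the log2 scale), SIX2 (-2.10), WT1 (-1.62) and LHX1 (-1.27). The 6 neural markers summed to 256 to 259 CPM and 115 to 122 CPM, and the 8 fibroblast markers to 27.2 to 28.0 CPM and 12.05 to 14.2 CPM, with COL1A2 and STMN2 at 0 in all libraries. NEFL, at 165 and then 38.1 CPM, set most of the neural sum, while TUBB3 rose (2.18) and INA (-0.22) and MAP2 (-0.37) fell little. The 7 blood markers summed to at most 0.718 CPM and the 5 endothelial markers to at most 1.83 CPM in any library. The part of these shifts in the HOX values was not tested. Most genes moved: 83.1% of the 17415 genes tested passed the test in either direction, with a median log2 fold change of 0.01, so the count of changed members is read against that background.

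HOX transcripts were lower as a group after MGO. Their share of all counts was 0.0845, 0.0854 and 0.0871% before treatment (libraries 1, 2 and 4) and 0.0472, 0.0468 and 0.0465% after it (libraries 1, 3 and 4). The summed level was 826 ± 10.98 CPM untreated and 487 ± 12.4 CPM with MGO (SD, n = 3 and 3), which is 1.70-fold lower, and the groups did not overlap. All levels are CPM scaled by TMM, so a change is a change relative to the rest of the library. In cultured cells measured in bulk, fewer cells that express a gene and less RNA per cell cannot be told apart.

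Of the 39 members, 35 had enough counts to be tested. By edgeR's quasi-likelihood test with Benjamini-Hochberg adjustment over all 17415 genes at 0.05, 28 fell, 2 rose and 5 did not pass, where 41.2% of all genes tested fell and 41.8% rose. In 28 members every MGO library was below every untreated library, as in 41.7% of all genes, and in 2 every MGO library was above, as in 41.8%. Falls of at least 2-fold were seen in 19 members (16.7% of all genes) and of at least 4-fold in 6 (3.76% of all genes). No member rose by 2-fold, against 19.8% of all genes. The median log2 fold change of the 35 was -1.02, in a range from -3.91 for HOXB8 to 0.64 for HOXB2. HOXB8 and HOXD12 passed the count filter in all untreated libraries and in 1 MGO library each, so their place among the tested members rests on the group where they were higher.

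**Figure D1:**
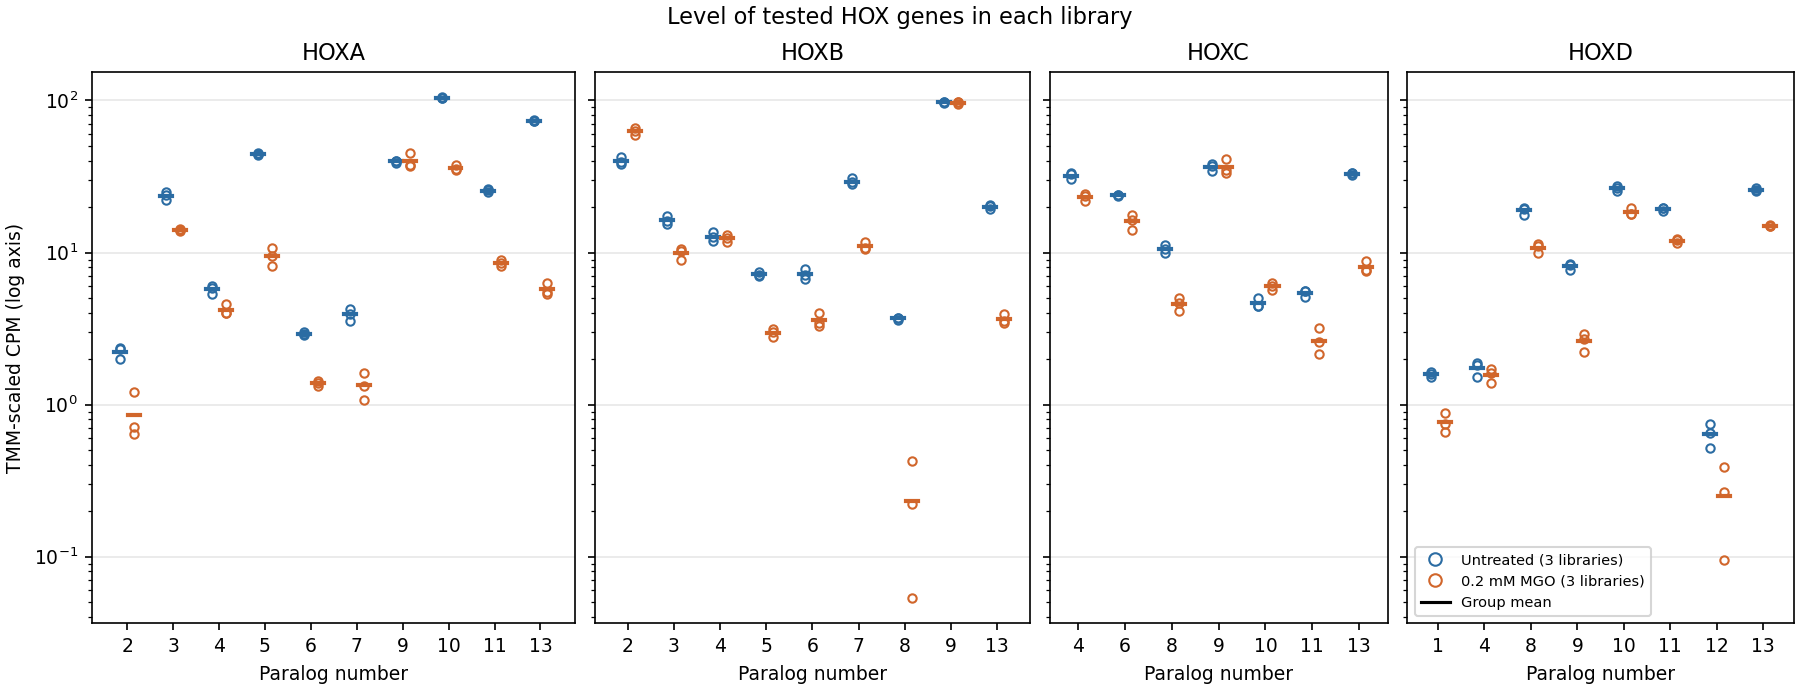
Level of tested HOX genes in every library, in CPM on a log axis, with the 3 untreated and the 3 MGO libraries as points. HOXA13 drops from above 70 CPM to about 6 CPM, while HOXB9 stays near 97 CPM in all 6 libraries and HOXB2 lies higher in the MGO libraries.

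The summed levels of the clusters were lower with MGO by unequal amounts. HOXA had the largest difference, from 343 ± 2.91 to 124 ± 4.77 CPM (2.76-fold lower). HOXD went from 103 ± 1.68 to 62.0 ± 1.11 CPM (1.66-fold), HOXC from 147 ± 3.04 to 97.4 ± 5.54 CPM (1.51-fold) and HOXB from 234 ± 6.58 to 203 ± 3.06 CPM (1.15-fold). In none of the 4 did the groups overlap. As a result of these unequal changes HOXA held 41.0 to 42.0% of all HOX counts in untreated libraries and 25.05 to 25.9% in MGO libraries, whereas HOXB held 27.9 to 28.8% and then 41.3 to 42.1%. HOXC took 17.5 to 18.0% and then 19.1 to 20.6%, and the ranges of HOXD, 12.3 to 12.7% and 12.5 to 13.2%, overlapped. HOXB9 and HOXB2 made up most of the HOXB share, with HOXB9 at 11.8% of HOX counts untreated and 19.9% with MGO, and HOXB2 at 4.84% and 12.9%.

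**Figure D2:**
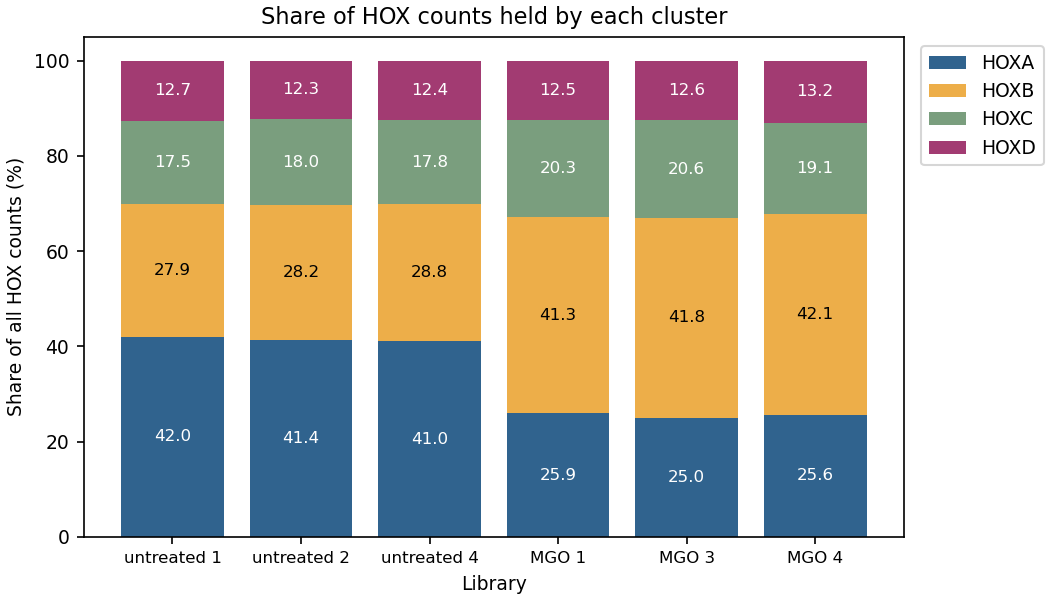
Share of all HOX counts (%) held by each of the 4 clusters in each library, as stacked bars. The HOXA part shrinks from 41.0 to 42.0% in the untreated to 25.05 to 25.9% in the MGO libraries, and the HOXB part widens from 27.9 to 28.8% to 41.3 to 42.1%.

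Over all genes tested, 41.2% fell, 41.8% rose, 16.7% fell by at least 2-fold and 3.76% by at least 4-fold. Counted by gene, 10 of the 11 tested HOXA members fell and 1 missed the threshold (median -1.53 on the log2 scale), and 8 fell by at least 2-fold. In HOXB 6 of 9 fell, 1 rose and 2 did not pass (median -1.01). In HOXC 5 of 7 fell, 1 rose and 1 did not pass (median -0.58). In HOXD 7 of 8 fell and 1 did not pass (median -0.80), and no HOXD member fell by 4-fold. Among the falls of at least 4-fold were those of HOXA5, HOXA13, HOXB8, HOXB13 and HOXC13.

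Sorted by number, members 1 to 3 had a median of -0.90 (5 of 6 tested fell, 1 rose), members 4 to 8 of -1.05 (12 of 14 fell) and members 9 to 13 of -1.02 (11 of 15 fell, 1 rose). These counts too stand beside 41.2% of all genes that fell and 41.8% that rose. With no filter on low counts, members 9 to 13 had a median of -1.38 and members 4 to 8 of -1.20, beside -0.92 for members 1 to 3. Over the 35 tested members the log2 fold change had a Pearson r of -0.24 and a Spearman rho of -0.21 with the paralog number, a description over genes that share libraries and are not independent. Within clusters r was -0.24 for HOXA (n = 11), -0.59 for HOXB (n = 9), -0.41 for HOXC (n = 7) and -0.20 for HOXD (n = 8). The fold change had almost no relation to the untreated level (r of 0.02 with log2 CPM, n = 35).

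**Figure D3:**
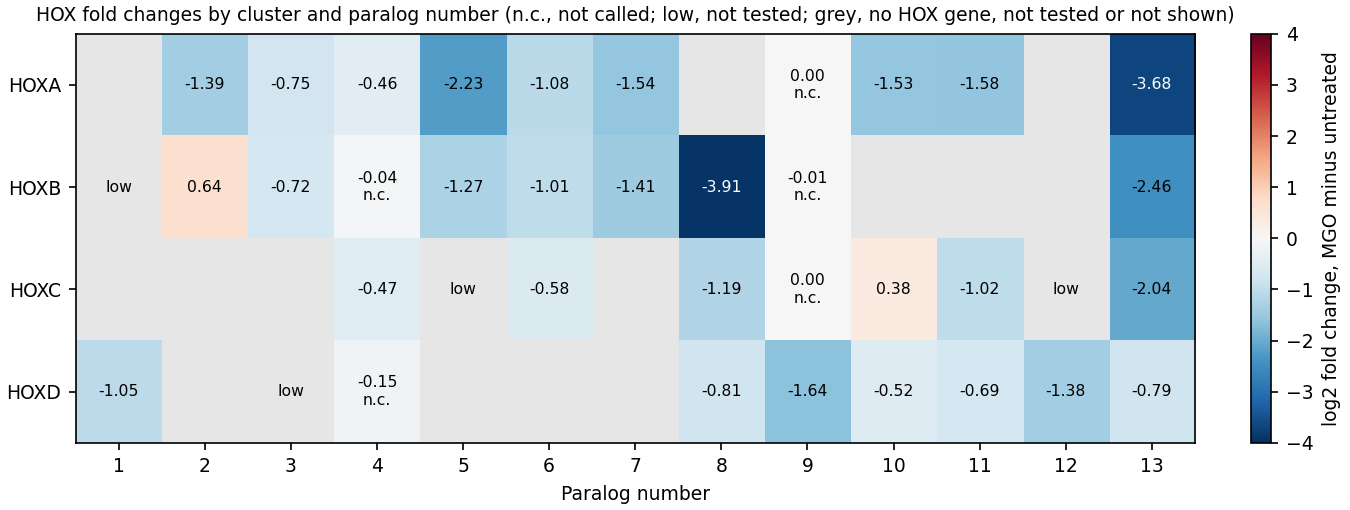
Log2 fold change (MGO minus untreated) of HOX genes, laid out with the clusters as rows and the paralog numbers as columns, blue for lower and red for higher. The column for number 13 is blue in all 4 clusters, with a median of -2.25, and 3 of the 4 genes in column 9 are close to 0.

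The paralog 13 genes, the most 5′ of each cluster and the last to be used along the axis, fell in all 4 clusters. HOXA13, which patterns the hands, feet and hindgut (chromosome 7, 27193503 to 27200106, GRCh38, minus strand), was at 73.0, 73.2 and 74.3 CPM in the untreated libraries and at 5.30, 5.53 and 6.32 CPM in the MGO libraries. Its fall was 12.8-fold (log2 fold change -3.68, SE 0.0660, adjusted p = 1.87e-29). HOXB13, a factor of the prostate and the tail end of the embryo (chromosome 17, 48724763 to 48729178, minus strand), was at 19.3, 20.6 and 20.4 CPM and then at 3.54, 3.97 and 3.47 CPM. It fell 5.49-fold (-2.46, SE 0.0907, adjusted p = 1.56e-21). HOXC13, known for hair and nails (chromosome 12, 53938765 to 53946544, plus strand), was at 33.5, 33.2 and 32.6 CPM and then at 7.68, 8.80 and 7.60 CPM, a 4.13-fold fall (-2.04, SE 0.0699, adjusted p = 2.08e-22). In each of these 3 genes every MGO library was far below every untreated one. HOXD13, the paralog that shapes the digits (chromosome 2, 176092891 to 176095938, plus strand), moved least, from 26.5, 25.7 and 25.6 CPM to 15.3, 14.9 and 14.97 CPM (-0.79, adjusted p = 3.47e-13). The 95% intervals of the log2 fold change (normal approximation from the SE) were -3.81 to -3.55 for HOXA13 and -0.91 to -0.67 for HOXD13.

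The paralog 9 genes gave the opposite picture in 3 of the 4 clusters. HOXB9, known for patterning the ribs (chromosome 17, 48621159 to 48626356), was at 97.8, 95.7 and 97.9 CPM untreated and at 95.1, 98.1 and 97.0 CPM with MGO. HOXC9, a factor of thoracic motor neurons (chromosome 12, 53994895 to 54003337), was at 34.4, 37.2 and 38.2 CPM and at 41.2, 35.1 and 33.4 CPM. HOXA9, known from blood stem cells and leukaemia (chromosome 7, 27162435 to 27175180), was at 40.3, 38.8 and 40.2 CPM and at 45.3, 37.5 and 36.9 CPM. The groups overlapped in all 3, and MGO library 1 was the highest of the 6 for HOXA9 and HOXC9. None passed the test, with 95% intervals of the log2 fold change of -0.08 to 0.07 for HOXB9, -0.13 to 0.12 for HOXC9 and -0.11 to 0.12 for HOXA9 (adjusted p = 0.892, 0.958 and 0.983). Without MGO library 1 HOXA9 and HOXC9 passed as slightly lower, each at -0.12 (adjusted p = 0.0256 and 0.0389). With no filter on low counts all 3 passed as lower, at -0.18 to -0.19. That setting takes in 35722 genes, with a median of 0.20, beside 0.01 over the 17415 genes of the main fit. Other genes moved down by like amounts with it, HOXB4 from -0.04 to -0.22 and the flanking gene CALCOCO1 from 0.18 to -0.0030. HOXB9 also passed as lower with library-size scaling (-0.11, adjusted p = 0.0173). HOXD9 (chromosome 2, 176122720 to 176124937) was the exception in this paralog group, at 7.68, 8.40 and 8.29 CPM and then at 2.93, 2.68 and 2.23 CPM (-1.64, SE 0.120, adjusted p = 7.32e-14).

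Among the other posterior members, HOXA10, a factor of the uterus and of blood cells (chromosome 7, 27170591 to 27180261), was at 104.5, 103.3 and 105.0 CPM and then at 37.9, 35.4 and 34.7 CPM, with no overlap (-1.53, SE 0.0440, adjusted p = 2.2e-24). HOXA11, which with its paralogs is needed to form the kidney (chromosome 7, 27181510 to 27185223), was at 25.7, 24.9 and 26.2 CPM and then at 8.12, 8.54 and 8.88 CPM (-1.58, SE 0.0707, adjusted p = 2.23e-19). Its paralogs HOXC11 and HOXD11 fell too, at -1.02 and -0.69. HOXC10 (chromosome 12, 53985065 to 53990279), a paralog of HOXA10 that acts in the lumbar spinal cord, rose from 4.44, 4.43 and 5.03 CPM to 6.35, 6.01 and 5.70 CPM (0.38, SE 0.108, adjusted p = 0.00209). That rise did not pass when no filter on low counts was used (0.20, adjusted p = 0.149). HOXD10, the third gene with this number, fell by 0.52 on the log2 scale.

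Of the central members, HOXA5, a factor of lung and airway development (chromosome 7, 27141052 to 27143668), was at 45.1, 43.8 and 44.7 CPM untreated and at 8.18, 9.45 and 10.7 CPM with MGO, with no overlap (-2.23, SE 0.0689, adjusted p = 1.55e-23). HOXB7 (chromosome 17, 48607227 to 48633572) was at 28.1, 28.9 and 30.9 CPM and then at 11.7, 10.6 and 10.7 CPM (-1.41, SE 0.0681, adjusted p = 1.72e-18). HOXC8, a factor of the brachial spinal cord (chromosome 12, 54009106 to 54012362), was at 11.1, 10.0 and 10.5 CPM and then at 4.14, 4.67 and 5.04 CPM (-1.19, adjusted p = 1.78e-12). HOXB5 was at 7.14, 7.42 and 7.05 CPM and then at 3.15, 2.79 and 2.99 CPM (-1.27, adjusted p = 1.13e-11). HOXB6 was at 6.73, 7.15 and 7.77 CPM and then at 4.03, 3.44 and 3.28 CPM (-1.01, adjusted p = 2.02e-09). In all of these the MGO libraries lay below the untreated ones.

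HOXB8 (chromosome 17, 48611377 to 48614939), a gene known from myeloid cells, had the largest fall of the tested members on few counts. It was at 3.62, 3.72 and 3.73 CPM in the untreated libraries and at 0.221, 0.0537 and 0.428 CPM in the MGO libraries, from 505 counts in the first group and 14 in the second. The log2 fold change was -3.91 (SE 0.271, adjusted p = 1.89e-14), with a 95% interval of -4.44 to -3.38. HOXB9, which did not change by the test, is its neighbour, and their 3′ ends are 9.78 kb apart, while the end of HOXB7 on the other side is 4.15 kb away. Large and small changes thus lay side by side in 1 cluster.

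**Figure D4:**
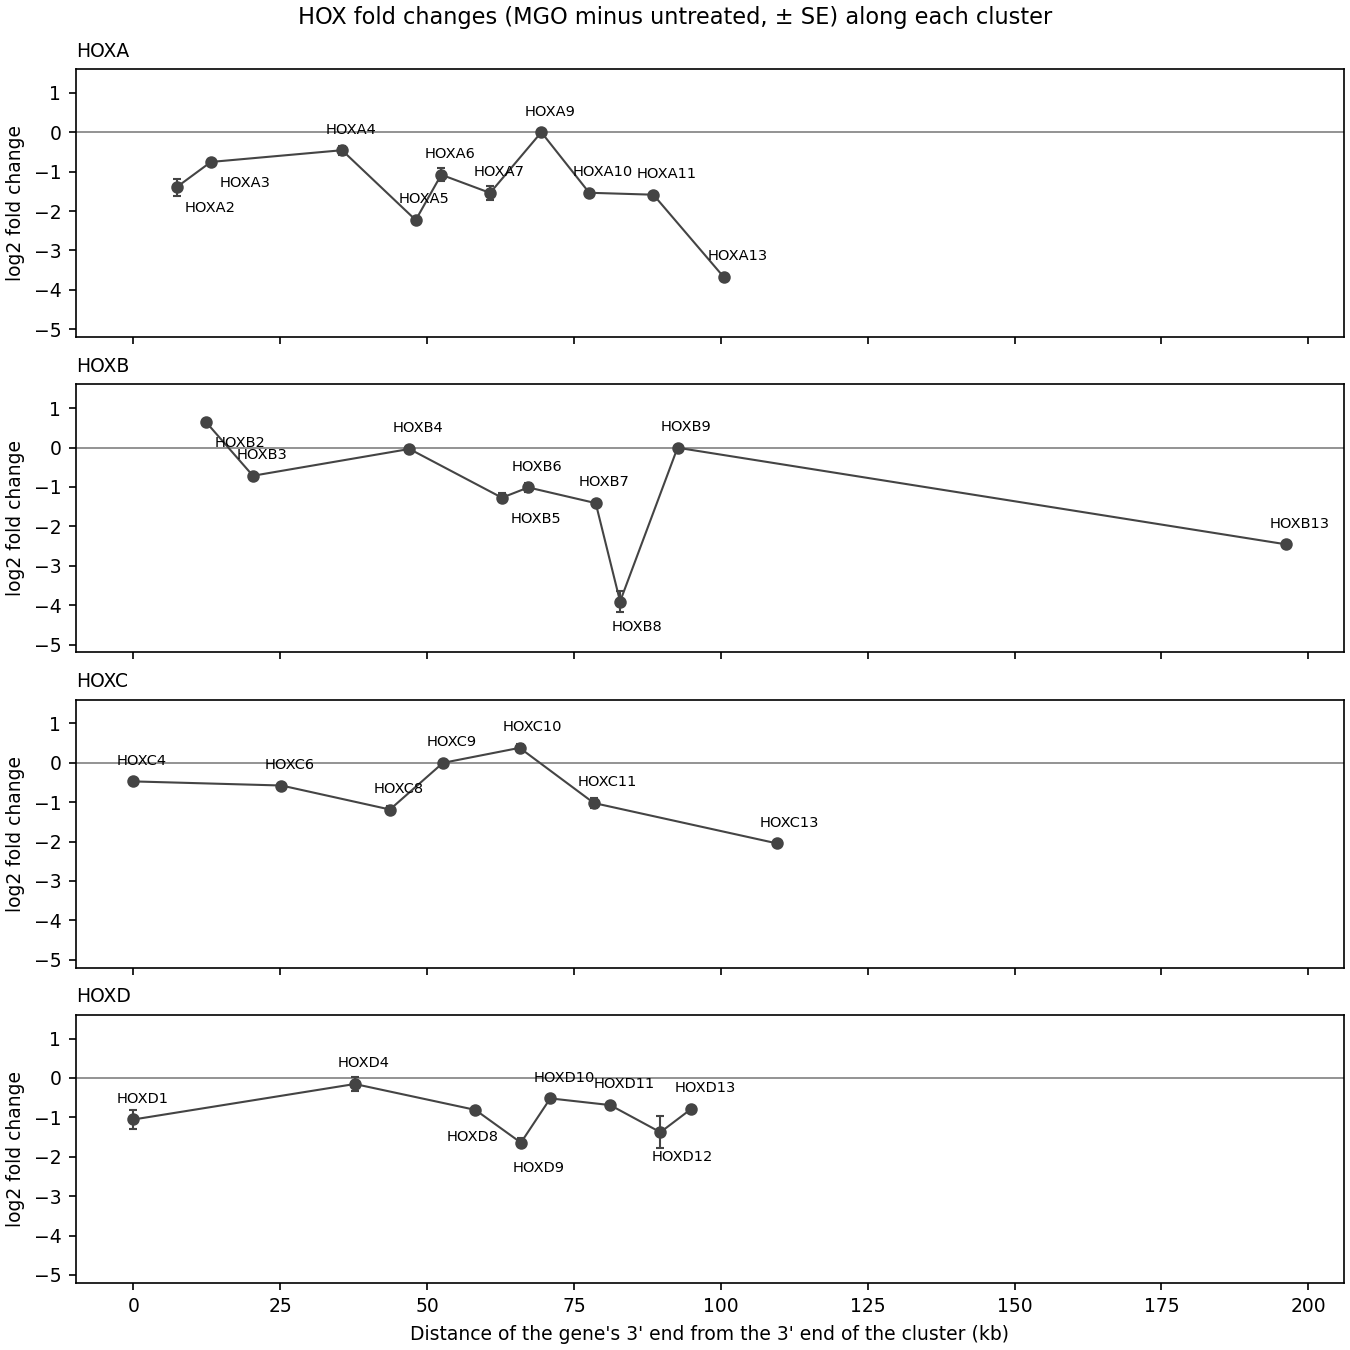
Log2 fold change (± SE) of tested HOX genes against the distance of their 3′ ends, in kb, from the 3′ end of the cluster, with 1 panel per cluster. HOXB8 at -3.91 sits between HOXB7 at -1.41 and HOXB9 at -0.01, and HOXA9 at 0.00 sits between HOXA7 at -1.54 and HOXA10 at -1.53.

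The paralog 4 genes moved little. HOXB4, known for the growth of blood stem cells (chromosome 17, 48575513 to 48580111), was at 12.7, 11.9 and 13.6 CPM untreated and at 12.5, 11.6 and 13.02 CPM with MGO, and the groups overlapped (-0.04, 95% interval -0.19 to 0.11, adjusted p = 0.66). With no filter on low counts it passed as lower (-0.22, adjusted p = 0.0105). HOXD4 (chromosome 2, 176151222 to 176153226) was low, at 1.83, 1.88 and 1.53 CPM and at 1.38, 1.72 and 1.62 CPM, and its interval of -0.52 to 0.21 allows a sizeable fall (adjusted p = 0.45). HOXA4 and HOXC4 passed the test as lower by small amounts, at -0.46 and -0.47.

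Among the anterior members, HOXB2, a gene of the hindbrain and facial nerve (chromosome 17, 48540894 to 48544989), was at 38.3, 39.3 and 42.6 CPM and then at 65.6, 62.5 and 59.6 CPM. It was the only member besides HOXC10 to rise (0.64, SE 0.0489, 95% interval 0.55 to 0.74, adjusted p = 1.81e-13). Its paralog HOXA2 fell from 2.33, 2.36 and 2.00 CPM to 1.22, 0.644 and 0.713 CPM (-1.39, adjusted p = 9.28e-07).

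The other members that fell lay between -1.54 for HOXA7 and -0.46 for HOXA4, and in each of them the libraries of the groups did not overlap. HOXA3 (-0.75) and HOXB3 (-0.72) fell by like amounts, as did HOXD8 (-0.81) and, less, HOXC6 (-0.58). HOXA6 fell to under 2 CPM (-1.08) and HOXD1, under 2 CPM in every library, fell by a like amount (-1.05), and HOXD12, the lowest tested member per exon length in untreated cells, fell from 0.647, 0.522 and 0.752 CPM to 0.387, 0.268 and 0.0950 CPM (-1.38, adjusted p = 0.0027). The 4 members too low to test were HOXB1 with 1 count over the untreated and 4 over the MGO libraries, HOXC5 with 41 and 19, HOXC12 with 49 and 1, and HOXD3 with 33 and 30. With about 2-fold fewer counts in the MGO libraries no direction is read from these totals.

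Scaled by the length of all annotated exons, which allows genes to be ranked, HOXB9 came first in both groups, at 37.6 ± 0.474 CPM per kb untreated and 37.5 ± 0.594 with MGO. In untreated cells it was followed by HOXA10 (28.1), HOXA5 (26.1), HOXC9 (21.8), HOXB7 (19.2), HOXB2 (17.1) and HOXA13 (14.4), and each of these differed from its neighbour in the order by more than their summed SD. With MGO the order was HOXB9, HOXB2 (26.8), HOXC9 (21.8), HOXA9 (13.2) and HOXA10 (9.72). HOXA13 went from rank 7 to rank 25 of the 35, at 1.12 CPM per kb, where it did not differ from HOXA6, HOXD4 and HOXB13 beyond their spread. In the untreated order HOXD13 and HOXA11 could not be told from the genes just above them. Further down the same held for HOXC6, HOXC8, HOXA3, HOXB4, HOXA4, HOXB3, HOXC10, HOXA7 and HOXD1. With the longest transcript as the length in place of all exons, 34 of the 70 values per kb moved by more than 1 SD and first place changed in both groups. HOXA10 (41.0 CPM per kb) then stood above HOXB9 (37.6) in untreated cells, and HOXB2 (40.1) stood above HOXB9 (37.5) with MGO. Over the 35 tested members the orders by both lengths had a Spearman rho of 0.987 untreated and 0.994 with MGO, as a description.

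HOX genes share sequence with overlapping transcripts, and nothing in the sources used here says whether the authors counted by strand. By GENCODE 29, 12 of the 35 tested members overlap no exon of another gene, among them HOXA5, HOXB7, HOXB8, HOXB9, HOXB13 and HOXD13. Of these 12, 11 fell (median -1.38), and of the 23 with some overlap 17 fell (median -0.72), where 41.2% of all genes tested fell. The 12 include HOXB8 and HOXD12, which reached the count cutoff in 1 MGO library each. Their median thus rests in part on members tested through the group where they were higher. In 4 members over 30% of the exonic bases lie opposite another gene, namely HOXA7 (62.5%, HOXA-AS3), HOXD1 (58.1%, HAGLR among them), HOXA6 (39.3%, HOXA-AS3) and HOXA11 (31.1%, HOXA11-AS), and reads from the 2 strands cannot be told apart for them. HOXA9 shares 15.9% of its exonic bases with genes on its own strand and has 13.9% opposite HOXA10-AS, and HOXD4 shares 80.5% on its own strand. Own-strand sharing was 31.0% for HOXA4, 21.4% for HOXD11, 17.8% for HOXC4, 17.1% for HOXB4, 16.8% for HOXD10 and 16.6% for HOXB6. The values of all these members are uncertain in this respect. HOXA13 overlaps only 1.69%, with HOTTIP.

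Non-coding transcripts of the clusters were tested in the same fit, and the counts of this and the other lists stand beside the same background, in which 41.2% of all genes tested fell and 41.8% rose. Falls passed for 9 of the 13 tested (28 listed) and rises for 2, and the median was -1.24 on the log2 scale beside 0.01 over all genes. HOTAIR, an RNA from the HOXC cluster studied for its links to Polycomb, fell from 2.83 ± 0.477 to 0.306 ± 0.108 CPM (-3.16, adjusted p = 3.08e-12). HOXA11-AS1 fell from 4.91 ± 0.509 to 0.968 ± 0.454 CPM (-2.36, adjusted p = 2.57e-12). HAGLR, which starts beside HOXD1, fell from 24.4 to 7.75 CPM (-1.66, adjusted p = 7.51e-19), HOXA-AS3 from 7.06 to 1.39 CPM (-2.35, adjusted p = 2.69e-15), and HOTTIP, which lies next to HOXA13 and is studied for its links to MLL complexes, from 0.945 to 0.321 CPM (-1.58, adjusted p = 1.09e-04). HOTAIRM1, a transcript at the 3′ end of the HOXA cluster, rose from 2.33 ± 0.0696 to 3.44 ± 0.311 CPM (0.56, adjusted p = 6.58e-04). HOXC-AS1 also rose, from 3.30 to 5.96 CPM (0.85, adjusted p = 5.61e-07). HOTAIR and HOTTIP reached the count cutoff in all untreated libraries but in 1 MGO library each, and MIR196A1 in no MGO library, so these 3 were tested through the group where they were higher.

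The annotated span of HOXB7 runs across HOXB8 and HOXB9, and the microRNA gene MIR196A1 lies inside it, 5′ of HOXB9. The row named MIR196A1 held 57 counts over the untreated and 1 over the MGO libraries. These are poly(A) reads over the gene and not the mature microRNA, whose sequence is shown because miR-196 is known to act on HOXB8 mRNA, with its seed (bases 2 to 8) in capitals, from RefSeq on GRCh38.p14.
hsa-miR-196a-5p, chr17:48632532-48632553, minus strand: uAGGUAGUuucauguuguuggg

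Of 17 tested genes on either side of the clusters (27 listed), 13 fell and 4 rose, where 41.2% and 41.8% of all genes did, with a median of -0.52. SNX10, beyond the 3′ end of HOXA, fell from 53.4 ± 1.35 to 14.3 ± 0.0913 CPM (-1.90), and SKAP2, the nearest coding gene there, from 142 to 84.1 CPM (-0.76). HIBADH, beyond the other end, fell from 53.5 to 24.4 CPM (-1.13). Beyond the 3′ end of HOXB, SNX11 rose from 37.0 ± 2.24 to 52.7 ± 2.57 CPM (0.51, adjusted p = 1.32e-10). Beside HOXC, SMUG1 fell from 39.4 to 21.9 CPM (-0.85) and CBX5, which encodes a heterochromatin protein, from 366 to 218 CPM (-0.75), while CALCOCO1 was 33.01 ± 1.61 CPM and 37.4 ± 1.29 CPM (0.18, adjusted p = 0.0024), a call lost with library-size scaling (0.07, adjusted p = 0.216), without both libraries numbered 1 (0.11, 0.0665) and with no filter on low counts (-0.00, 0.974). Beside HOXD, MTX2 fell from 48.3 to 39.0 CPM (-0.31), and EVX2, the homeobox gene next to HOXD13, rose at a low level, from 0.345 ± 0.131 to 0.916 ± 0.0332 CPM (1.41, adjusted p = 2.04e-04, over the count cutoff in 2 untreated and 3 MGO libraries), in the opposite direction to its neighbour. TTLL6 beside HOXB13 was at 0.287 and 0.542 CPM and passed narrowly (adjusted p = 0.0246), and it no longer passed without untreated library 1 (0.0572), untreated library 2 (0.0879) or MGO library 4 (0.37), with no filter (0.104) or by DESeq2 (0.0732).

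Of the 9 genes for DNA-binding partners of HOX proteins (PBX, MEIS and PKNOX), all tested, 8 fell and 1 rose, beside 41.2% and 41.8% of all genes, and the median was -0.76. MEIS2 fell from 34.5 ± 1.18 to 11.2 ± 0.691 CPM (-1.62, adjusted p = 1.43e-20) and PKNOX2 from 6.16 to 2.01 CPM (-1.61). MEIS1 fell from 8.15 to 3.62 CPM (-1.16), PKNOX1 from 42.1 to 24.9 CPM (-0.76), PBX2 from 127 to 77.2 CPM (-0.71), PBX3 from 32.4 to 23.1 CPM (-0.49) and MEIS3 from 45.4 to 39.4 CPM (-0.21). PBX4 rose from 1.30 ± 0.261 to 5.68 ± 0.668 CPM (2.13, adjusted p = 4.54e-14).

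**Figure D5:**
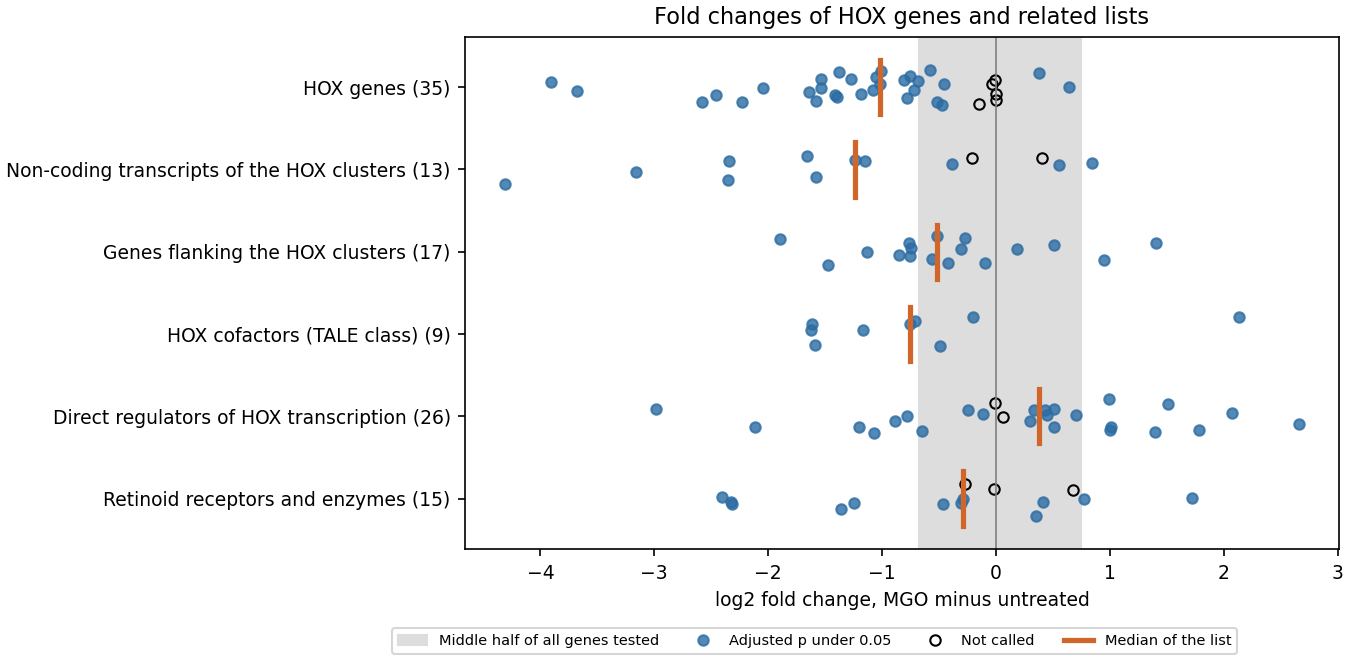
Log2 fold change (MGO minus untreated) of each tested gene in the HOX genes and in the lists of cofactors, cluster non-coding transcripts, flanking genes, chromatin regulators and retinoid genes, 1 point a gene. The median of each list is marked, and a band shows the middle range (percentiles 25 to 75) of all genes tested. HOX genes have a median of -1.02, cofactors of -0.76 and regulators of 0.38.

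Genes that act on HOX transcription did not move as 1 group. Of 26 tested Polycomb, Trithorax and related genes, 15 were called higher and 9 lower, beside 41.8% and 41.2% of all genes, and the median was 0.38. The H3K27 demethylase genes KDM6B and KDM6A, whose products remove the Polycomb mark, rose from 27.6 ± 0.598 to 175 ± 6.46 CPM (2.66) and from 103 ± 0.995 to 353 ± 9.20 CPM (1.78). Genes for the complex that writes this mark rose too, EZH2 (1.51), EED (0.99) and SUZ12 (0.51), while EZH1 (0.06) did not pass. The MLL gene KMT2A rose (1.39), whereas MEN1, for a partner in MLL complexes, fell (-0.89). The Polycomb subunit gene PHC3 rose from 16.5 to 69.2 CPM (2.07), whereas CBX2, another subunit gene, fell from 106 to 24.6 CPM (-2.12). Of 15 tested receptors and enzymes of retinoic acid, a known inducer of HOX genes, 8 were called lower and 4 higher, against the same background (median -0.29). RXRA fell from 74.4 to 14.8 CPM (-2.33), RARB from 8.35 to 1.57 CPM (-2.40) and the retinaldehyde reductase gene DHRS3 from 21.4 to 4.33 CPM (-2.32). CYP26A1, whose product breaks down retinoic acid, rose from 1.91 to 6.30 CPM (1.72). Every regulator and retinoid gene named here, except EZH1, passed the same edgeR test over all genes.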

How the data were processed

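RNA was measured in 6 libraries of HEK293T GLO1KO cells, 3 untreated and 3 given MGO, grouped by their labels. The deposited values are raw read counts per gene. The submitters' processing notes name the hg38 build and 4 tools, HTSeq 0.9.1, Picard, STAR 2.4 and Trim Galore. Settings, annotation and strand use: not given in the sources used here.

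Counts were tested with edgeR 4.0.16 in R 4.3.3 (filterByExpr, TMM scaling, robust quasi-likelihood fit, Benjamini-Hochberg adjustment over 17415 genes, threshold 0.05), with the groups as the only term. The pipeline was checked on simulated counts. Separate cultures are not stated in the labels, and p-values then measure only a spread among these libraries that may be technical. Coordinates and exon lengths came from GENCODE 29 on GRCh38 (HOXC5, with 2 entries, got none), and promoter and miRNA sequences from RefSeq on GRCh38.p14.

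The members and the gene lists were chosen with earlier results of these data known. Full values were given for members that averaged at least 5 CPM and fell at least 2-fold, for those that rose and for those not passing, with ranges or counts for the rest, and for up to 4 genes of each other list by p, besides the cofactors and the direct neighbours. The values of 2 genes are not reported here, though counts, sums and medians include them. EVX2, HOXB8 and HOXD12 are printed with their values besides that rule, chosen after these were seen, as are HOXA2, HOXD13 and the other members given with library values. The same holds for EZH1, EZH2, EED, SUZ12, KMT2A, MEN1, SNX11, HOTTIP, HOTAIRM1, HOXC-AS1 and MIR196A1. Alternatives were RLE, upper quartile and library-size scaling, no filter or 1 CPM in every library, DESeq2 1.42.0, limma 3.58.1 (voom), a fit that was not robust, thinned counts, a replicate block and leaving out libraries.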

Additional observations from a re-analysis of the deposited data

How the results depend on the processing

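Each of the 30 called HOX genes was refitted under the 17 alternatives that could test it. Of 505 values 504 kept direction and call, and 1, HOXC10 with no filter, did not. Between 24 and 33 members fell, beside 28 of 35 tested in the main fit (7182 of 17415 genes in all). The 24 were of 31 tested, with at least 1 CPM in every library (5589 of 12790 genes). The 33 were of 39 tested, with no filter (8739 of 35722 genes), where 1 rose. Library-size scaling moved the all-gene median from 0.01 to -0.10. Its HOX medians were -1.01, -1.15 and -1.13 for members 1 to 3, 4 to 8 and 9 to 13. With no filter, medians were -1.20 for all HOX, -1.72 for HOXA, -0.76 for HOXC, -0.97 for HOXD, -1.20 for members 4 to 8 and -1.38 for members 9 to 13. With at least 1 CPM in every library, which tests fewer genes, they were -0.75 for all HOX, -0.80 for HOXB, -0.67 for HOXD, -0.67 for members 1 to 3 (3 fell) and -0.84 for members 9 to 13. Thinned counts gave -0.80 and -0.88 for members 1 to 3 and 9 to 13, and leaving out both libraries numbered 1 gave -0.99 and -1.22. Leaving out 1 library at a time gave -0.81 to -0.73 and -1.25 to -1.01. Then 28 to 31 of 36 to 38 tested members fell, beside 6919 to 7444 of 16925 to 18677 genes. Paralog medians changed sign for number 2 (0.71 at 1 CPM) and number 9 (0.018 with RLE, 0.014 with upper quartile, 0.060 at 1 CPM, 0.018 with DESeq2, 0.014 thinned).

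Signs changed for members near 0, and the cause was not tested. HOXA9 was at -0.10 with library size (adjusted p = 0.0929), -0.18 with no filter (0.00109), -0.0052 with limma voom, -0.10 without both libraries numbered 1 and -0.12 to 0.020 leaving out 1 library. HOXB9 was at 0.017 with RLE, 0.013 with upper quartile, 0.059 at 1 CPM, 0.017 with DESeq2 and 0.021 thinned, and it passed as lower with library size (-0.11, edgeR adjusted p = 0.0173) and no filter (-0.19, 7.3e-05). HOXC9 was at 0.018 with RLE, 0.015 with upper quartile, 0.061 at 1 CPM, 0.020 with DESeq2 and 0.039 thinned, and leaving out 1 library gave -0.12 to 0.023; it passed as lower with no filter (-0.19, 0.00101) and without both libraries numbered 1 (-0.15, 0.0135). HOXB4 was at 0.029 at 1 CPM and up to 0.0015 leaving out 1 library, and it passed as lower with no filter (-0.22, 0.0105). HOXC-AS5 passed as lower with no filter (-0.40, 0.0353) and HOXB-AS1 as higher thinned (0.70, 0.0331). CALCOCO1 was at -0.0030 with no filter.

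The groups share replicate numbers 1 and 4, and the deviations of these libraries from their group means had r of 0.02 and -0.01 over genes. With 3 libraries per group such values cannot show whether the numbers pair libraries or mark a batch. Library 1 stood apart in both groups by chi-square per degree of freedom between library pairs. Untreated pairs with library 1 gave 6.99 and 6.39, beside 1.88 for libraries 2 and 4. MGO pairs with it gave 7.44 and 14.7, beside 3.43 for libraries 3 and 4. Numbers 2 and 3 occur in 1 group each, so a fit with a replicate block takes the group difference from the libraries numbered 1 and 4 alone. With that block 28 HOX genes fell, HOXC9 was at 0.036, and 6673 genes fell and 6778 rose in all, beside 7182 and 7282.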
